A study of Mus musculus with 12 samples.

Results

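The genes described here are 9 markers of mural cells, the cells that wrap blood vessels: Myh11, Acta2, Tagln, Cnn1, Des, Rgs5, Kcnj8, Cspg4 and Mcam. They were chosen by name, with earlier results of these data known, as genes in common use as markers of pericytes or vascular smooth muscle. All 9 had a probe set annotated to that gene alone, out of 22180 genes with such a probe set. They were measured on 12 Affymetrix arrays, 3 biological replicates in each of 4 groups of fresh material from C57BL/6 mice. The groups were adipose progenitor preparations (AP) from the perigonadal visceral depot (VAT), AP from the inguinal subcutaneous depot (SAT), whole adipose tissue (AT) from VAT, and AT from SAT. For AP the depots were dissociated with enzymes, and beads carrying antibodies then took lineage-positive blood cells and CD31-positive endothelial cells out of the stromal vascular fraction. AP is thus defined by what was removed, and no positive marker was used. AT was not fractionated. Cells of several mice went into the preparations. The labels used here give neither the sex and age of the mice nor which animals made up a replicate, and the p-values therefore cover only how far these samples spread.

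Pericytes sit on capillaries and share a basement membrane with the endothelium, while vascular smooth muscle forms the contractile wall of arteries, arterioles and veins. Both contract through actin and smooth muscle myosin, under the control of serum response factor and its cofactor myocardin, which act through a DNA element called the CArG box. In white fat, mural cells lie close to the progenitors along the vessel wall, and both belong to the stromal vascular fraction. Neither carries CD31, so the depletion by beads was not aimed at them.

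Values are log2 intensities made by the authors with RMA, in which 1 unit is a factor of 2. Differences were fitted with limma over all 12 arrays, and a gene was called at a Benjamini-Hochberg adjusted p under 0.05 over all 22180 genes of a contrast. The standard error of a gene is the same in both depots, since the groups share 1 estimate of its spread. Levels of different genes were read from different probes and are not compared with each other. Within a group, the correlation between arrays was 0.9869 to 0.9936. Over all genes 15.8% were called higher and 16.8% lower in AP than in AT of VAT, and 16.1% and 16.3% in SAT. The adipocyte list fell in AP, with all 9 measured members called lower in each depot. The leukocyte list had 7 of 8 called lower in each. The progenitor and fibroblast list had 8 of 9 members called higher in VAT and 9 of 9 in SAT, among them Pdgfra (2.47 in VAT and 2.15 in SAT) and Cd34 (1.42 and 1.52). On that list AT SAT replicate 3 stood apart, with a mean level of 10.38 against 9.61 and 9.42 in the other AT SAT replicates. Without that array the numbers of the 9 mural genes called stayed as reported below, except that 2 in place of 3 were higher in AT of VAT than of SAT.

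Myh11 lies at chr16:14194527-14292188, Acta2 at chr19:34240336-34255585, Tagln at chr9:45929628-45936058, Cnn1 at chr9:22099221-22109221 and Des at chr1:75360292-75368579 (all GRCm38.p6, RefSeq). Rgs5 lies at chr1:169655501-169695813, Kcnj8 at chr6:142564837-142571614, Cspg4 at chr9:56865104-56899870 and Mcam at chr9:44134658-44142727. Tagln overlaps Pcsk7 and Des overlaps the noncoding RNA Gm15179. One further probe set shared by Des and Gm15179 was not used.

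The RefSeq table held a promoter for 7 of the 9 genes. The 250 bases before the start of 4 of them are shown, since Acta2 and Kcnj8 moved together between AP and AT while Cspg4 and Mcam followed other patterns. Each is written 5′ to 3′ on the strand of the gene, and capitals mark matches to the CArG box with at most 1 letter off.
Acta2, chr19:34255374-34255623, minus strand: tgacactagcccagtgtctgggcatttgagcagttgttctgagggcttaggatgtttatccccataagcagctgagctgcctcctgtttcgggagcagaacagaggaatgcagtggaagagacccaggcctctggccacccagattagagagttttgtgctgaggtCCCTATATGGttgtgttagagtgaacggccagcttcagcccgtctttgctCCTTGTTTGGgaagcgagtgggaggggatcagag
Kcnj8, chr6:142571615-142571864, minus strand: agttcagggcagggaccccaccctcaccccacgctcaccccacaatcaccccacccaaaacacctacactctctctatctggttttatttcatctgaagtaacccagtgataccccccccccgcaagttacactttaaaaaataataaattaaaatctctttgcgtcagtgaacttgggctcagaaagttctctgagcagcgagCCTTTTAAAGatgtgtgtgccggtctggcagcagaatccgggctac
Cspg4, chr9:56864854-56865103, plus strand: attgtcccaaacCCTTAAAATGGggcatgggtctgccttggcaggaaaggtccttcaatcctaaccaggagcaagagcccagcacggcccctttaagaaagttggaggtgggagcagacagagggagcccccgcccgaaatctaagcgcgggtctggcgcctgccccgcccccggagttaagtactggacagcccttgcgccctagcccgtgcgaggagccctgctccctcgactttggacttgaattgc
Mcam, chr9:44134408-44134657, plus strand: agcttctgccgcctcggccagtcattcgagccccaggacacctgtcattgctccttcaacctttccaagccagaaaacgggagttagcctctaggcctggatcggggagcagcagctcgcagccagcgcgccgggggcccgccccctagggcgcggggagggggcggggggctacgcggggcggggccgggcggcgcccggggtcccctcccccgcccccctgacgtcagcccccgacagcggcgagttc
None of the 7 windows held the CArG box without a mismatch, which 1.47% of 32851 promoter windows of this length did. With 1 letter off allowed, 3 of the 7 did, against 18.6% of all windows. Acta2 had 2 such matches, starting 84 and 34 bases before the start used for its window. That start lies inside the gene span given above, which ends at chr19:34255585, so the window overlaps the span. Kcnj8 had 1, at 46 bases. Cspg4 had 2 that overlap, at 238 and 237 bases, although its levels did not follow those of Acta2. Des and Cnn1, whose groups had the same order of level as those of Acta2, had no such match and are not shown. Rgs5 and Mcam had none either. The MCAT element GGAATG, searched on both strands, was present in the Acta2 window at 146 bases and in none of the other 6. It occurs in 12.6% of all windows. These are matches of letters and not measured binding sites.

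**Figure D1:**
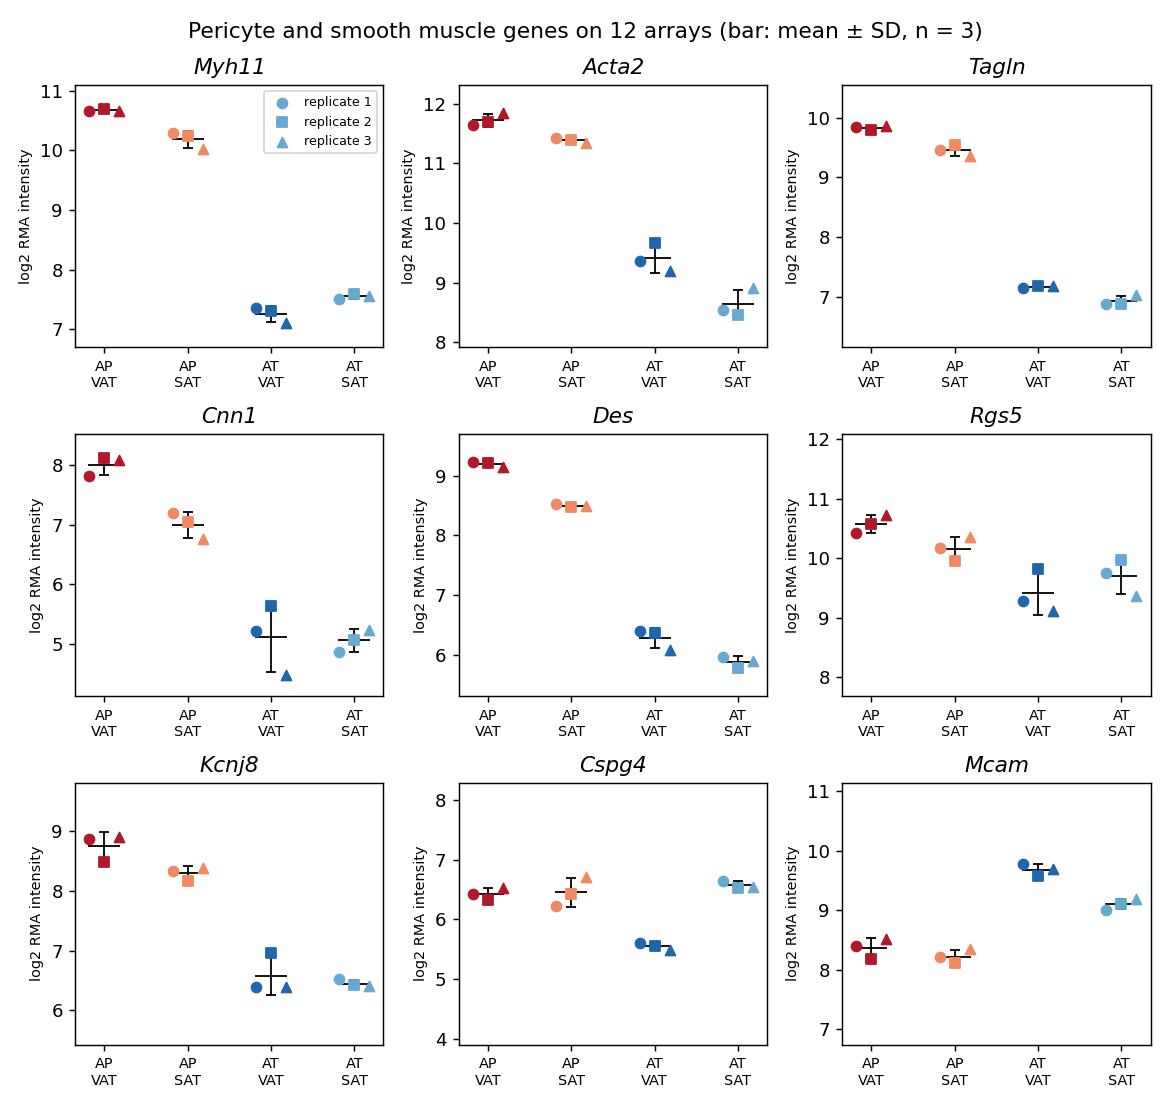
Log2 RMA level of each of the 9 genes on the 12 arrays, with 1 panel per gene. Points are the replicates (circle 1, square 2, triangle 3) and bars are mean ± SD of a group (n = 3), ordered AP VAT, AP SAT, AT VAT, AT SAT. The contractile genes are above in AP, as in Myh11 with means of 10.68 and 10.19 in AP and 7.25 and 7.55 in AT, while Mcam is above in AT and Cspg4 is low in AT VAT alone.

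Myh11, Acta2, Tagln, Cnn1 and Des encode the contractile apparatus and its frame, and all of them were higher in AP than in AT in both depots. Across the 9 genes, 8 were called higher and 1 lower in VAT, with a median difference of 2.32, and 6 were called higher and 1 lower in SAT, with a median of 1.94. Over all genes 15.8% were called higher and 16.8% lower in VAT, and 16.1% higher and 16.3% lower in SAT, with a median difference of 0.03 in each. The replicates of AP and AT did not overlap for 9 of the 9 genes in VAT and 7 of 9 in SAT, against 40.9% and 44.6% of all genes. In bulk samples, a larger number of mural cells, more RNA per mural cell and RNA of these genes from other cells cannot be told apart.

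Myh11 encodes the myosin heavy chain of smooth muscle. Its level was 10.67, 10.70 and 10.67 in AP of VAT, against 7.35, 7.30 and 7.10 in AT of VAT. In SAT it was 10.30, 10.24 and 10.02 in AP, against 7.51, 7.59 and 7.55 in AT. No AP array came near an AT array, and the 4 groups did not overlap with each other. The difference was 3.43 (SE 0.105, adjusted p = 2.55e-12 by limma), or 10.8-fold, in VAT. In SAT it was 2.64 (adjusted p = 4.44e-11), or 6.22-fold. Ranked from the highest difference, Myh11 stood at 23 of 22180 genes in VAT and at 66 in SAT.

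Acta2 encodes smooth muscle alpha-actin, a component of the thin filament. In VAT its level was 11.64, 11.69 and 11.84 in AP, against 9.37, 9.66 and 9.19 in AT. The SAT arrays gave 11.43, 11.39 and 11.35 in AP, against 8.54, 8.46 and 8.91 in AT. Every AP array lay above every AT array, by 2.32 on average in VAT (SE 0.136, adjusted p = 3.95e-09) and by 2.75 in SAT (adjusted p = 5.25e-10). These are 4.98-fold and 6.74-fold. The other actin genes are close in sequence to Acta2, and how much of their RNA its probes bind was not tested.

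Tagln encodes transgelin, a small protein that binds actin. Its level was 9.84, 9.80 and 9.86 in AP of VAT, against 7.14, 7.17 and 7.18 in AT of VAT, and 9.46, 9.54 and 9.36 in AP of SAT, against 6.87, 6.88 and 7.02 in AT of SAT. Its replicates were the closest of the 9 genes, with an SD within groups of 0.064, at percentile 1.5 of all genes. The rise was 2.67 (SE 0.094, adjusted p = 1.08e-11), or 6.36-fold, in VAT and 2.53 (adjusted p = 2.22e-11), or 5.78-fold, in SAT.

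Cnn1 encodes calponin, which binds actin and slows the myosin ATPase. Its level was 7.81, 8.12 and 8.08 in AP of VAT, against 5.21, 5.64 and 4.48 in AT of VAT. Those of SAT held 7.19, 7.04 and 6.76 in AP, against 4.87, 5.06 and 5.24 in AT. The groups did not overlap between AP and AT, although the AT arrays of VAT spread widely. The rise was 2.89 (SE 0.219, adjusted p = 6.28e-08), or 7.43-fold, in VAT and 1.94 (adjusted p = 4.1e-06), or 3.84-fold, in SAT.

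Des encodes desmin, the intermediate filament of muscle cells, which pericytes also carry. Its level was 9.23, 9.22 and 9.15 in AP of VAT, against 6.39, 6.37 and 6.08 in AT of VAT, and 8.52, 8.47 and 8.49 in AP of SAT, against 5.96, 5.77 and 5.90 in AT of SAT. All 4 groups stood apart. The rise was 2.92 (SE 0.105, adjusted p = 1.5e-11), or 7.57-fold, in VAT and 2.62 (adjusted p = 4.95e-11), or 6.13-fold, in SAT. Desmin is also made by skeletal and cardiac muscle. The skeletal muscle list had a mean level of 5.11 to 5.23 in AP of VAT, against 5.03 to 5.11 in AT of VAT, and 5.05 to 5.08 in AP of SAT, against 4.85 to 5.14 in AT of SAT. Of its 12 members 1 was called higher and 1 lower in VAT, and 1 higher in SAT. Over all genes 15.8% were called higher and 16.8% lower in VAT, and 16.1% and 16.3% in SAT. Acta1, skeletal alpha-actin, had a difference of -1.37 in VAT and 0.03 in SAT, and Ckm, the muscle creatine kinase, of 0.03 and -0.02, not called in either. The member called higher in VAT was Actn3, a sarcomeric actinin (1.39, adjusted p = 1.68e-06), with an uncalled difference of 0.36 in SAT. The cardiac list of 6 had 2 members called higher in VAT and none in SAT. Acta2, Myh11 and Cnn1 are also made by the myoepithelium of the mammary gland, which lies in the inguinal depot of female mice. The epithelial list had none of 9 measured members called higher and 1 lower in each depot, with a mean level of 4.77 to 4.91 in AP of SAT, against 4.75 to 4.85 in AT of SAT.

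Rgs5 and Kcnj8 are used as pericyte markers. Rgs5 encodes a regulator that shortens signalling by G proteins. Its level was 10.42, 10.58 and 10.73 in AP of VAT, against 9.29, 9.82 and 9.12 in AT of VAT. The SAT levels were 10.17, 9.95 and 10.35 in AP, against 9.76, 9.97 and 9.37 in AT. The groups stood apart in VAT and overlapped in SAT, where AT replicate 2 lay above AP replicate 2. The difference was 1.17 (SE 0.183, adjusted p = 0.000119), or 2.25-fold, in VAT. In SAT it was 0.46 (95% interval 0.07 to 0.85, adjusted p = 0.0708) and was not called. That result rested on the probe set and on single arrays. A second Rgs5 probe set of lower level gave 1.18 in SAT (adjusted p = 0.000313) and 1.82 in VAT (adjusted p = 5.3e-06). Without AT SAT replicate 2 the first probe set gave 0.59 in SAT (adjusted p = 0.0321), and without AT VAT replicate 2 its adjusted p was 0.0317.

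Kcnj8 encodes Kir6.1, the pore of a potassium channel that opens when ATP is low. Its level was 8.88, 8.48 and 8.90 in AP of VAT, against 6.39, 6.96 and 6.39 in AT of VAT, and 8.34, 8.17 and 8.39 in AP of SAT, against 6.52, 6.42 and 6.40 in AT of SAT. All AP arrays lay above all AT arrays. The rise was 2.17 (SE 0.154, adjusted p = 2.98e-08), or 4.51-fold, in VAT and 1.85 (adjusted p = 1.55e-07), or 3.61-fold, in SAT. Abcc9, which encodes the regulatory subunit SUR2 of the same channel, rose by 2.08 in VAT and 1.22 in SAT.

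Cspg4 encodes the proteoglycan NG2 on the surface of pericytes and of some glial cells. Its level was 6.43, 6.33 and 6.53 in AP of VAT, against 5.60, 5.56 and 5.48 in AT of VAT. In SAT it was 6.22, 6.43 and 6.71 in AP, against 6.65, 6.53 and 6.54 in AT. The VAT groups stood apart, and the AT arrays of SAT lay inside the range of the AP arrays. The rise in VAT was 0.88 (SE 0.120, adjusted p = 2.9e-05), or 1.85-fold. The difference in SAT was -0.12 (95% interval -0.38 to 0.14, adjusted p = 0.517), and it was 0.15 with the arrays scaled to 13 housekeeping genes, again not called. The Schwann cell list had a mean level of 4.81 to 4.88 in AP of VAT, against 4.39 to 4.64 in AT of VAT, and 5.23 to 5.44 in AP of SAT, against 5.18 to 5.46 in AT of SAT. Of its 6 measured members 2 were called higher in VAT, against 15.8% of all genes. In SAT 1 was called higher and 1 lower, against 16.1% and 16.3% of all genes. The levels of this list were lower in VAT than in SAT, and their part in the Cspg4 values was not tested.

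Mcam encodes CD146, an adhesion molecule of pericytes and smooth muscle that endothelium carries too. It was the only one of the 9 genes called lower in AP. Its level was 8.40, 8.18 and 8.52 in AP of VAT, against 9.77, 9.58 and 9.69 in AT of VAT, and 8.21, 8.11 and 8.34 in AP of SAT, against 9.01, 9.10 and 9.18 in AT of SAT. The difference was -1.31 in VAT (SE 0.112, adjusted p = 2.32e-07) and -0.88 in SAT (adjusted p = 1.46e-05). Endothelial genes fell as well: 8 of 10 were called lower and 1 higher in each depot, with a median of -1.49 in VAT and -1.97 in SAT. Their mean level was 5.66 to 5.77 in AP of VAT, against 7.01 to 7.43 in AT of VAT, and 5.63 to 5.73 in AP of SAT, against 7.37 to 7.51 in AT of SAT. Pecam1, which encodes the CD31 that the beads bind, had differences of -2.83 in VAT and -2.97 in SAT, and Cdh5, the cadherin of endothelial junctions, of -3.86 and -3.43. The part of endothelial cells in the Mcam values was not tested.

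**Figure D2:**
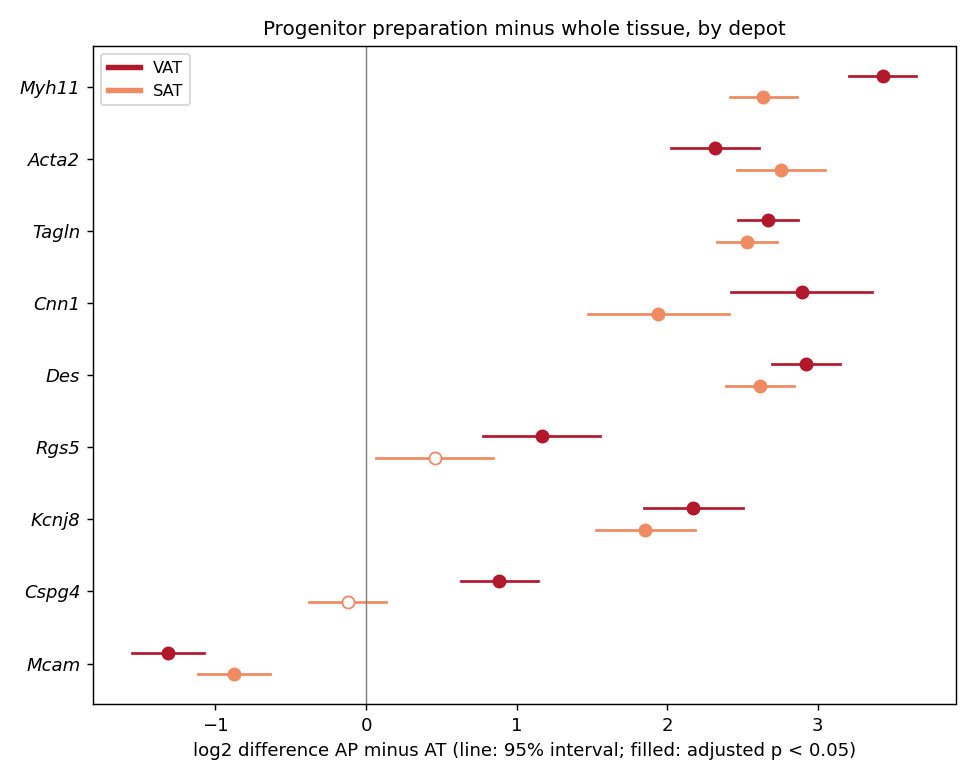
Log2 difference AP minus AT for each of the 9 genes, in VAT and in SAT. Points are the limma estimates, filled where called, and lines are 95% intervals before adjustment for the number of genes. Myh11 (3.43 in VAT and 2.64 in SAT) lies far to the right of 0, Mcam (-1.31 and -0.88) lies left of it, and Rgs5 and Cspg4 in SAT are not called.

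All AP samples had passed through dissociation and bead depletion, and no AT sample had. The immediate early genes, which many cell types switch on within minutes of disturbance, rose in AP for all 10 of the list in each depot, with a median of 4.28 in VAT and 4.51 in SAT, among them Fos and Fosb. Serum response factor controls several of them as well as the contractile genes. Preparation and cell content cannot be told apart in this design.

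The 9 genes fell into 4 orders of level across the groups. Acta2, Tagln, Des, Cnn1 and Kcnj8 were highest in AP of VAT, then AP of SAT, AT of VAT and AT of SAT, with all neighbours apart except the AT groups of Cnn1 and Kcnj8, which overlapped. Myh11 and Rgs5 had AT of VAT at the bottom, below AT of SAT. The Myh11 groups were all apart, whereas for Rgs5 AP of SAT overlapped AT of SAT and AT of SAT overlapped AT of VAT. Cspg4 was highest in AT of SAT, which overlapped AP of SAT, which overlapped AP of VAT, with AT of VAT apart at the bottom. Mcam was highest in AT of VAT, then AT of SAT, and the AP groups below overlapped. The group means spanned 2.31 to 3.43 in the contractile genes and Kcnj8, and 1.03 to 1.46 in Rgs5, Cspg4 and Mcam.

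Between the depots, 4 of the 9 genes were higher in AP of VAT than in AP of SAT and none was called lower, with a median of 0.42. Over all genes 3.03% were called higher and 2.60% lower. Des rose by 0.71 (SE 0.105, adjusted p = 0.000469), Cnn1 by 1.01 (adjusted p = 0.0107), Myh11 by 0.49 (adjusted p = 0.00891) and Tagln by 0.38 (adjusted p = 0.0236). All 4 encode contractile or cytoskeletal proteins. The replicates of the depots did not overlap for 7 of the 9 genes, against 20.4% of all genes. Acta2 differed by 0.33 (adjusted p = 0.228), Kcnj8 by 0.45 (0.121), Rgs5 by 0.42 (0.269), Mcam by 0.15 (0.645) and Cspg4 by -0.02 (0.97), none of them called. The count rested on single arrays: without AP SAT replicate 3 it was 1, and without AP VAT replicate 2 it was 2. Des was called in each of these cases. Myh11 was lost without AP SAT replicate 3 (adjusted p = 0.0574), Cnn1 without either array (0.0601 and 0.0588), and Tagln without any of 5 AP arrays (0.0522 to 0.116). Mesothelial genes, which mark the lining of the visceral depot, were also higher in VAT, with 8 of 8 called and a median of 3.55. Their mean level was 8.47 to 8.99 in AP of VAT, against 5.43 to 5.72 in AP of SAT, with Msln higher by 3.63 and Upk3b by 4.98. The progenitor and fibroblast list was lower in AP of VAT, with 4 of 9 members called lower, none higher and a median of -0.55, at a mean level of 10.87 to 10.99 in AP of VAT, against 11.40 to 11.55 in AP of SAT. Of the 12 skeletal muscle genes 1 was called higher, Actn3, a sarcomeric actinin (1.93, adjusted p = 4.77e-07). The part of these genes in the depot differences of the mural genes was not tested.

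In whole tissue, 3 of the 9 genes were called higher in VAT than in SAT and 1 lower, with a median of 0.13. Over all genes 2.80% were called higher and 1.75% lower, and the replicates did not overlap for 6 of the 9 genes against 18.1% of all genes. Acta2 was higher by 0.77 (SE 0.136, adjusted p = 0.00317) and Mcam by 0.58 (adjusted p = 0.0058). Cspg4 was lower (difference -1.03, adjusted p = 8.13e-05), which ranks it 22085 of 22180 from the highest difference. Des was higher by 0.40 at an adjusted p of 0.04, a call lost without any of 10 of the 12 arrays, among them AT VAT replicate 1 (adjusted p = 0.154) and AT SAT replicate 2 (0.137). Of the 12 skeletal muscle genes 2 were called higher in AT of VAT than of SAT, Acta1 by 1.34 (adjusted p = 0.000777) and Actn3 by 0.90 (adjusted p = 0.00126), with a list median of -0.07, and their part in the Des and Acta2 values was not tested. Scaling to housekeeping genes left Acta2 alone called higher. Myh11 differed by -0.30 (adjusted p = 0.145) and Rgs5 by -0.29 (0.497), and Tagln, Cnn1 and Kcnj8 by 0.05 to 0.24, none called. The mesothelial list was called higher for 8 of 8 members in AT as well, with a median of 3.28, and the Schwann list lower for 3 of 6, with a median of -0.60.

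**Figure D3:**
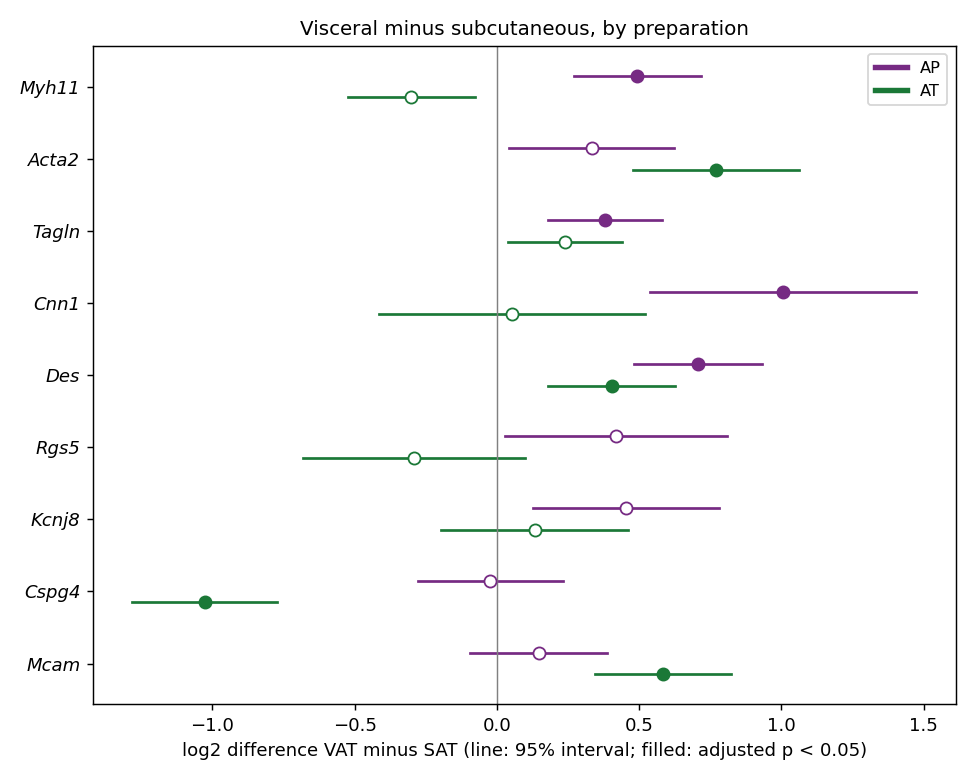
Log2 difference VAT minus SAT for each of the 9 genes, in AP and in AT. Points are the limma estimates, filled where called, and lines are 95% intervals before adjustment for the number of genes. Des (0.71), Cnn1 (1.01), Myh11 (0.49) and Tagln (0.38) are called in AP, and Cspg4 in AT (-1.03) lies far left of its value in AP (-0.02).

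Whether the depots differed by another amount in AP than in AT was tested as an interaction (VAT minus SAT in AP, less the same in AT), and it was called for 2 of the 9 genes, both positive. Over all genes 0.987% were called positive and 1.16% negative. For Cspg4 the interaction was 1.00 (SE 0.169, adjusted p = 0.00581). Its AP groups differed by -0.02, and its 3 AT arrays of VAT, at 5.48 to 5.60, were the lowest of the 12. For Myh11 it was 0.79 (SE 0.148, adjusted p = 0.0106), with VAT above SAT in AP and, uncalled, below it in AT. Cnn1 (0.95, adjusted p = 0.156) and Rgs5 (0.71, adjusted p = 0.214) were not called. Without AT VAT replicate 2, which held the highest Cnn1 level of that group, Cnn1 gave 1.22 (adjusted p = 0.0311).

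Which array was the highest or lowest of its group differed between genes, and whether single arrays moved genes together was not tested. In AT of VAT, replicate 2 was the highest of its group for Acta2, Cnn1, Rgs5 and Kcnj8, and replicate 1 for Myh11, Des, Cspg4 and Mcam. Replicate 3 was the lowest there for Myh11, Acta2, Des, Cnn1, Rgs5 and Cspg4. In AP of SAT, replicate 3 was the highest for Rgs5, Kcnj8, Cspg4 and Mcam and the lowest for Myh11, Acta2, Tagln and Cnn1. Replicate 1 was the highest there for Myh11, Acta2, Des and Cnn1, and replicate 2 the lowest for Des, Rgs5, Mcam and Kcnj8. In AP of VAT, replicate 3 was the highest for 6 of the 9. The SD within groups was 0.337 for Cnn1, at percentile 97.4 of all genes, and 0.269 for Rgs5, at percentile 92.6, against a median of 0.156.

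Further genes of the same pathways were read in 5 lists. Over all genes, 15.8% were called higher and 16.8% lower in AP than in AT of VAT, and 16.1% and 16.3% in SAT. For VAT against SAT these shares were 3.03% and 2.60% in AP, and 2.80% and 1.75% in AT. For the interaction 0.987% were called positive and 1.16% negative. Of 16 other genes of the contractile filament, 13 were called higher and none lower in AP than in AT of VAT (median 1.36), and 12 and none in SAT (median 1.29). Myl9, a regulatory light chain of myosin, rose by 2.70 in VAT and 2.40 in SAT. Tpm2, a tropomyosin, rose by 1.84 and 1.92, and Ppp1r14a, an inhibitor of myosin phosphatase, by 2.38 and 1.70. Between depots 7 of the 16 were higher in AP of VAT, including Ppp1r14a by 0.73 (adjusted p = 0.00197) and Csrp1 by 0.64, and 4 in AT, including Csrp1 by 0.78 (adjusted p = 0.000999). Synpo2, an actin-binding protein of the Z line, was higher by 0.69 in AT (adjusted p = 0.0226), a call lost without AT SAT replicate 1 (0.118) or AT VAT replicate 1 (0.1). The intermediate filament gene Synm gave the 1 interaction called in this list (0.85, adjusted p = 0.0427), which was lost without any of 8 arrays (0.0641 to 0.119). The count of 7 dropped to between 2 and 4 without any one of the 6 AP arrays. The count of 4 in AT dropped to 1 with housekeeping scaling. It was 2 with only the compared arrays and without AT SAT replicate 1.

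Of 12 regulators of smooth muscle genes, 10 were called higher in AP of VAT and 12 in AP of SAT than in AT of the same depot, and none lower. Notch3, the Notch receptor of mural cells, rose by 2.95 in VAT and 2.91 in SAT. Its target Heyl rose by 1.92 in VAT and 1.28 in SAT, and Tbx2 by 1.47 and 1.59. The transcription factor Gata6 was higher in VAT than in SAT, by 1.05 in AP (adjusted p = 2.82e-05) and by 1.34 in AT (adjusted p = 4.55e-06), and Foxc1 was higher by 1.04 in AP (adjusted p = 9.34e-05). In all, 3 of the 12 were higher and 1 lower in AP of VAT than of SAT. The lower one was Mrtfb, a cofactor of serum response factor (-0.36, adjusted p = 0.0362), a call lost without any of the 6 AP arrays (0.0565 to 0.167). The interaction of Foxc1 was 0.87 (adjusted p = 0.0226), a call lost without AP SAT replicates 2 or 3, AT SAT replicate 2 or AT VAT replicate 3 (0.0539 to 0.0613).

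The pericyte-enriched list moved as a whole, with 14 of 14 genes called higher in AP than in AT in each depot and medians of 1.95 in VAT and 1.88 in SAT. Pdgfrb, the receptor through which endothelial platelet-derived growth factor recruits pericytes, rose by 3.36 and 2.95. Rgs4, a relative of Rgs5, rose by 3.13 and 3.15. Progenitors and fibroblasts also express Pdgfrb. Their own list had medians of 1.78 in VAT and 1.52 in SAT, and the part of these cells in the values of the 14 genes was not tested. Between depots, 1 of the 14 was called higher in AP of VAT than of SAT and none lower. In AT, 2 were called higher and 1 lower in VAT, against 2.80% and 1.75% of all genes. Abcc9 was lower there, with a difference of -0.99 (adjusted p = 0.00351), and its group means were 9.34 in AP of VAT, 9.47 in AP of SAT, 7.26 in AT of VAT and 8.26 in AT of SAT. Vtn, which encodes vitronectin, was higher there by 0.87 (adjusted p = 0.0246) and lost its call without AT SAT replicate 1 or 2 or AT VAT replicate 1 or 2 (0.0929 to 0.126). Ano1, a chloride channel gated by calcium, was higher in VAT by 0.70 in AP and by 2.32 in AT (adjusted p = 2.27e-08), and its interaction was -1.62 (adjusted p = 0.000202).

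Receptors and channels that set vessel tone gave 12 of 14 measured genes called higher and 1 lower in AP of VAT, and 12 and none in AP of SAT, against AT. S1pr3, a receptor for sphingosine-1-phosphate, rose by 3.44 in VAT and 2.98 in SAT, and Avpr1a, a vasopressin receptor, by 2.74 and 2.71. Ednrb, the type B endothelin receptor, went the other way in VAT. It fell by 2.35 there (adjusted p = 1.67e-07), against -0.22 in SAT (adjusted p = 0.465), with an interaction of -2.14 (adjusted p = 0.000815). Its means were 6.40 in AP of VAT, 8.54 in AP of SAT, 8.75 in AT of VAT and 8.76 in AT of SAT. Agtr1a, an angiotensin receptor, was lower in AP of VAT than of SAT (-0.69, adjusted p = 0.00965), a call lost without AP SAT replicate 3 (0.0511), without AP VAT replicate 2 (0.0628) and with housekeeping scaling (0.0622). Pde3a, a phosphodiesterase, and Pln, the phospholamban that restrains the calcium pump, were higher there by 0.62 (adjusted p = 0.0448) and 0.59 (adjusted p = 0.0255). The Pde3a call was lost without any of the 6 AP arrays or AT VAT replicate 1 (0.0617 to 0.152) and with the replicate block, and that of Pln without AP SAT replicates 2 or 3 or AP VAT replicates 1 or 2 (0.072 to 0.146).

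Genes of signals between endothelium and mural cells, which are ligands and the enzyme gene Nos3, were mixed. Of 8 genes, 2 were called higher and 3 lower in VAT (median -0.25), and 3 higher and 4 lower in SAT (median -0.48). Over all genes the shares were 15.8% higher and 16.8% lower in VAT, and 16.1% and 16.3% in SAT. Angpt2, a ligand of the Tie2 receptor, rose by 1.10 in VAT and 1.62 in SAT, and the Notch ligand Jag1 by 1.01 and 1.05. Nos3, the nitric oxide synthase of endothelium, was lower in AP, with differences of -1.65 in VAT and -2.13 in SAT. So were Angpt1, a Tie2 ligand made by mural cells (-1.13 in VAT and -0.78 in SAT), and the Notch ligand Dll4 (-0.70 and -1.02). Edn1, which encodes endothelin-1, rose by 1.34 in SAT (adjusted p = 0.0046) and was lower in AP of VAT than of SAT (-2.05, adjusted p = 0.000925).

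**Figure D4:**
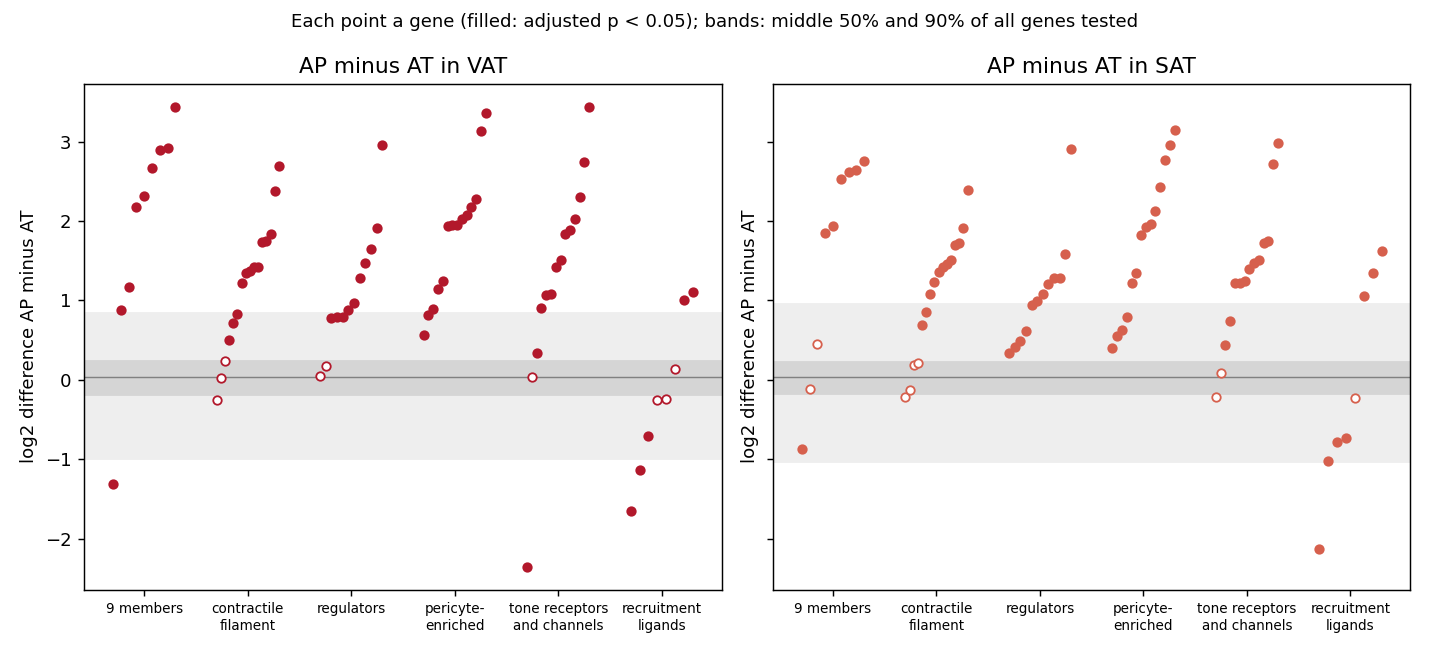
Log2 difference AP minus AT in VAT (left) and SAT (right) for the 9 mural genes ("9 members") and the measured genes of 5 pathway lists, 1 point a gene, sorted within a list and filled where called. Grey bands span the 0.25 to 0.75 and the 0.05 to 0.95 quantiles of all genes, and the line is their median (0.03 in each). The pericyte-enriched list lies wholly above 0 (medians 1.95 and 1.88), and the recruitment ligand list, which includes the enzyme gene Nos3, straddles it (-0.25 and -0.48).

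The genes whose pattern over the 12 arrays was most like that of 4 of the 9 were found by Pearson's r among 14530 genes, and since the arrays share their groups, r reflects the 4 group levels above all. For Acta2 they were Flna (0.993), Nynrin (0.993) and Gucy1a1 (0.992), of which Flna encodes the actin crosslinker filamin A and Gucy1a1 a subunit of the nitric oxide receptor. For Rgs5 they were Vcam1 (0.955), Septin4 (0.930) and Inpp4b (0.929). For Cspg4 they were Dot1l (0.948), Fam166a (0.922) and Sorcs2 (0.909). For Mcam they were Fgfrl1 (0.989), Rab1b (0.985) and Trp53inp2 (0.982).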

How the data were processed

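The arrays were prepared with the WT PLUS kit, per the labels. The authors deposited log2 values per probe set, made with RMA in Affymetrix Expression Console 1.3.0.187, per the submitters' processing notes. Base 2 of the log is inferred, since RMA gives log2 values and these run from 1.69 to 13.48. The summary level and annotation library are not given in the sources used here. RMA sets all arrays to 1 distribution before summary (array medians were 4.49 to 4.67), so a difference is relative to the other genes of an array and not to the RNA of a cell.

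Of 41345 probe sets, the annotation gave 1 gene to 23521, several to 1814 and none to 16010. Only the first kind was used. A gene with several was read from the one of highest mean on the 12 arrays, which gave 22180 genes, and no filter on dim genes was applied. limma 3.58.1 in R 4.3.3 was fitted with 1 mean per group over 12 arrays (8 residual and 6.84 prior degrees of freedom). It gave 5 contrasts with 2-sided moderated tests, and p-values adjusted by Benjamini-Hochberg over all genes within each. SE comes from the fit. Precision is limited by the number of arrays. Scripts were tested on simulated data.

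The members, lists and tests were chosen with earlier results of these data known, so counts over a list are descriptions. Named are all 9 members, for each pathway list and contrast the called genes that rose most (up to 2) and fell most (up to 2), the first 2 members of marker lists (Actn3 was added after its values were seen), and the 3 genes most like Acta2, Rgs5, Cspg4 and Mcam. Abcc9 is set beside Kcnj8 in AP against AT because it is named by that rule in another contrast. List members not analysed here include Cfd, Ly6a, Krt5, Ednra, Adra1a, Adra2b and Itpr1. Promoters are RefSeq's, on GRCm38.p6. Settings tried besides were a replicate block, trend and robust moderation, array weights, only the compared arrays, quantile normalization, cyclic loess, scaling to 13 housekeeping genes, a filter at the 40th percentile, the mean over or other probe sets of a gene, the size of the difference (log2 of 1 or more), and each array left out in turn. Figures were drawn with Python 3.11.15 and matplotlib 3.10.9.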

Additional observations from a re-analysis of the deposited data

Results flagged for a closer look

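For 2 of the 9 genes the depot difference in AP and that in AT differed by the test of the interaction itself. For Cspg4 it was 1.00 (SE 0.169, adjusted p = 0.00581 by limma). The gene differed by -0.02 between VAT and SAT in AP and by -1.03 in AT, where all 3 VAT arrays lay below all 3 SAT arrays.

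For Myh11 the interaction was 0.79 (SE 0.148, adjusted p = 0.0106 by limma). All 3 VAT arrays lay above all 3 SAT arrays in AP (0.49) and below them in AT (-0.30), although the difference in AT was not called (adjusted p = 0.145). No sample was tested as an outlier, since groups of 3 arrays are too small for that.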

How the results depend on the processing

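Of 45 differences (9 genes in 5 contrasts), 36 kept their side of the threshold at every alternative run, and no called difference changed sign. Numbers called between AP and AT moved least: 6 higher in SAT became 6 to 7, and 8 in VAT became 7 to 8, with 1 lower in each throughout. Leaving out each array in turn moved the 4 higher in AP of VAT than of SAT to between 1 and 5, the 3 in AT to between 2 and 3, and the 2 of the interaction to between 2 and 3. Scaling to housekeeping genes moved the median difference of all genes to 0.57 in VAT and 0.30 in SAT for AP minus AT, to 0.13 in AP and -0.14 in AT for VAT minus SAT, and to 0.26 for the interaction. It left 1 gene in place of 3 called higher in AT of VAT than of SAT, with Mcam lost (0.44, adjusted p = 0.136) and Des lost (0.26, adjusted p = 0.382). It raised the interaction to 4 genes, adding Cnn1 (1.22, adjusted p = 0.0197) and Rgs5 (0.98, adjusted p = 0.0286), and Rgs5 became called in SAT (0.73, adjusted p = 0.00164). The mean of the Rgs5 probe sets gave 0.82 in SAT (adjusted p = 0.00258). Kcnj8 was called higher in AP of VAT than of SAT with array weights, quantile normalization, cyclic loess, housekeeping scaling and without AT VAT replicate 2 (adjusted p from 0.0293 to 0.0395).

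With the replicate number as a block, 2 in place of 3 genes were called higher in AT of VAT than of SAT. Des had an adjusted p of 0.0551 with a fixed block and 0.0528 with a random one, and the block changed no other call of the 9 genes. Among the other named genes of the lists it ended the calls of Pde3a (0.0526 fixed, 0.0557 random) and Mrtfb (0.0612 fixed) between depots in AP, and of Synm in the interaction (0.0667 random), and no other. The labels do not say whether samples of the same number came from the same animals. Same-numbered samples deviated from their group means with correlations from -0.280 to 0.159, over 0.1 in 3 of 18 pairs. Samples of different numbers gave -0.184 to 0.309, over 0.1 in 6 of 36 pairs. With 3 arrays a group, these values cannot settle whether replicates shared animals. The causes of the shifts in calls were not tested. The lowest group means of the 9 genes, near 5 for Cnn1 in AT, lie closest to the dim level of 4.10, where intensity limits a difference.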
